A study of Mus musculus with 8 samples.

Results

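MAP kinase cascade kinases are the enzymes of the relay that carries signals from the cell surface to ERK, JNK and p38. They were chosen by name, as the protein-coding genes whose symbol is Mapk, Map2k, Map3k or Map4k followed by a number. Map3k14, the kinase of the non-canonical NF-κB route, was left out by the same rule. Described here are 41 of the 54532 genes in the count table: 12 MAP kinases (MAPK), 7 MAP2K, 17 MAP3K and 5 MAP4K genes.

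Expression was read in 8 libraries from organoids of the mouse small intestine, 4 of them labelled as controls and 4 as treated with RANKL. Organoids are epithelial structures grown from crypts in Matrigel, without the stroma of the gut. According to the study's culture methods, mouse organoids were kept in a medium with EGF, Noggin and R-spondin, and a medium low in EGF served some experiments. Which of them these libraries had is not stated. RANKL binds and activates the receptor RANK. The mouse lines of the study were kept on a C57BL/6J background, and for these libraries neither the labels nor the methods name the age of the mice or how much RANKL was given and for how long. They do not say either whether the 4 libraries of a group came from separate animals or cultures, so p-values measure only the spread between these libraries.

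In a MAP kinase cascade a MAP3K phosphorylates a MAP2K, which in turn phosphorylates a MAPK on a threonine and a tyrosine of its activation loop. MAP4Ks act further upstream, on MAP3Ks. The ERK branch runs from Raf kinases through Map2k1 and Map2k2 (MEK1 and MEK2) to Mapk3 (ERK1) and carries growth factor signals such as that of EGF. The JNK branch uses Map2k4 and Map2k7, and the p38 branch Map2k3 and Map2k6. Both of these answer mainly to stress and to cytokines, RANKL among them, through the adaptor TRAF6 and the kinase TAK1 (Map3k7). These kinases are switched on by phosphorylation, which a transcript count does not measure.

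The branches can be read from the DNA that encodes the activation loop, shown here for 7 MAPK genes with enough counts to be tested. Capitals mark the 9 bases of the loop motif, which code for threonine-glutamate-tyrosine in ERK, threonine-proline-tyrosine in JNK, threonine-glycine-tyrosine in p38 and serine-glutamate-glycine in the atypical kinase Mapk6. The coding strand is given 5′ to 3′, 27 bases each.
Mapk3: ggctttctgACGGAGTATgtggccaca
Mapk8: tttatgatgACGCCTTATgtggtgact
Mapk9: tttatgatgACTCCCTATgtggtaact
Mapk14: gatgagatgACAGGCTACgtggctacc
Mapk13: actgagatgACGGGCTATgtggtgacc
Mapk11: gaggagatgACCGGATATgtggccaca
Mapk6: ggtcatcttTCTGAAGGAttggttacc

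Positions are on GRCm38 in the GENCODE release M21 annotation. The stretch of Mapk3 lies at chr7:126763449-126763475 (exon 4 of 9, plus strand). The stretch of Mapk8 lies at chr14:33392994-33393020 (exon 6 of 12, minus strand) and that of Mapk9 at chr11:49872821-49872847 (exon 6 of 12, plus strand). Among the p38 genes it lies at chr17:28728390-28728416 in Mapk14 and chr17:28776335-28776361 in Mapk13, both on the plus strand, and at chr15:89145857-89145883 in Mapk11, on the minus strand. In each of these 3 genes that is exon 7 of 12. In Mapk6 the stretch is at chr9:75395628-75395654 (exon 3 of 6, minus strand). Every one of these stretches is coding sequence.

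Libraries were made with a kit that reads each transcript near its 3′ end, so long genes do not gather more counts than short ones. Levels are given in CPM, counts scaled to a common, TMM-adjusted library total. Total counts ran from 583663 to 7807298 in control and from 613135 to 1923354 in RANKL libraries. The shallow libraries were control replicate 4 and RANKL replicate 1, and a count of 0 there allows up to 3 counts, or 5.16 and 4.84 CPM. Such floors cover counting error only, since molecular identifiers are not mentioned. The summed level of 8 epithelial markers was 5921 to 6906 CPM in controls and 6034 to 6464 CPM with RANKL, and all 8 were detected, with 1 of them higher and 2 lower with RANKL. Markers of fibroblasts summed to 3.80 to 8.60 CPM in controls and 17.9 to 25.0 CPM with RANKL, and without Pdgfrb, the only one of 7 with enough counts to test and higher with RANKL, the others summed to 1.01 to 3.44 CPM in controls and 0.688 to 3.23 CPM with RANKL. Leukocyte markers summed to 5.10 to 8.87 CPM in controls and 4.13 to 14.5 CPM with RANKL, with Cd3e, Cd79a and Itgax at 0 counts, and endothelial markers to 0.760 to 3.44 CPM in controls and 0 to 1.61 CPM with RANKL, with Cdh5 and Kdr at 0. Within the epithelium, markers of M cells, the antigen-sampling cells that RANKL induces, summed to 50.3 to 59.0 CPM in controls and 1834 to 2077 CPM with RANKL. Of these 7 markers, 6 were tested and higher, and Gp2 was at 0 counts. Stem cell markers summed to 1216 to 1629 CPM in controls and 1034 to 1235 CPM with RANKL, with 1 of 5 higher and 3 lower. The part of these shifts in the results on kinases was not tested, and in bulk RNA fewer cells of a type cannot be told apart from less RNA per cell.

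Most of the cascade kinases did not pass the threshold between RANKL-treated and control organoids. Of the 41 kinases, 28 had enough counts to be tested (edgeR quasi-likelihood test, adjusted p under 0.05 over all genes tested). Mapk3, Mapk11 and Map4k4 were higher with RANKL, and Map3k20 and Map3k21 were lower. These 5 are 17.9% of the tested kinases, against a background of 25.9% over all 9971 genes tested (13.6% higher and 12.4% lower), so the share called was not above that of genes in general. For Mapk11 and Map3k20 no RANKL library overlapped a control library, which is 7.14% of those tested against 24.6% of all genes tested. The median log2 fold change was -0.014 over the kinases and 0.00017 over all genes tested, and the median of its absolute size was 0.15 against 0.26. The 23 kinases that did not pass had log2 fold changes between -0.25 and 0.30, and the 95% interval of each lay inside -1 to 1. Mapk11 had enough counts in all 4 RANKL libraries but only 1 control library, so it entered the test through the group where it was high. Map3k10 and Map4k5, which did not pass, had enough counts in all 4 control but only 3 RANKL libraries. They likewise count as entered through 1 group, and the shares and medians of the kinases carry this limit.

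**Figure D1:**
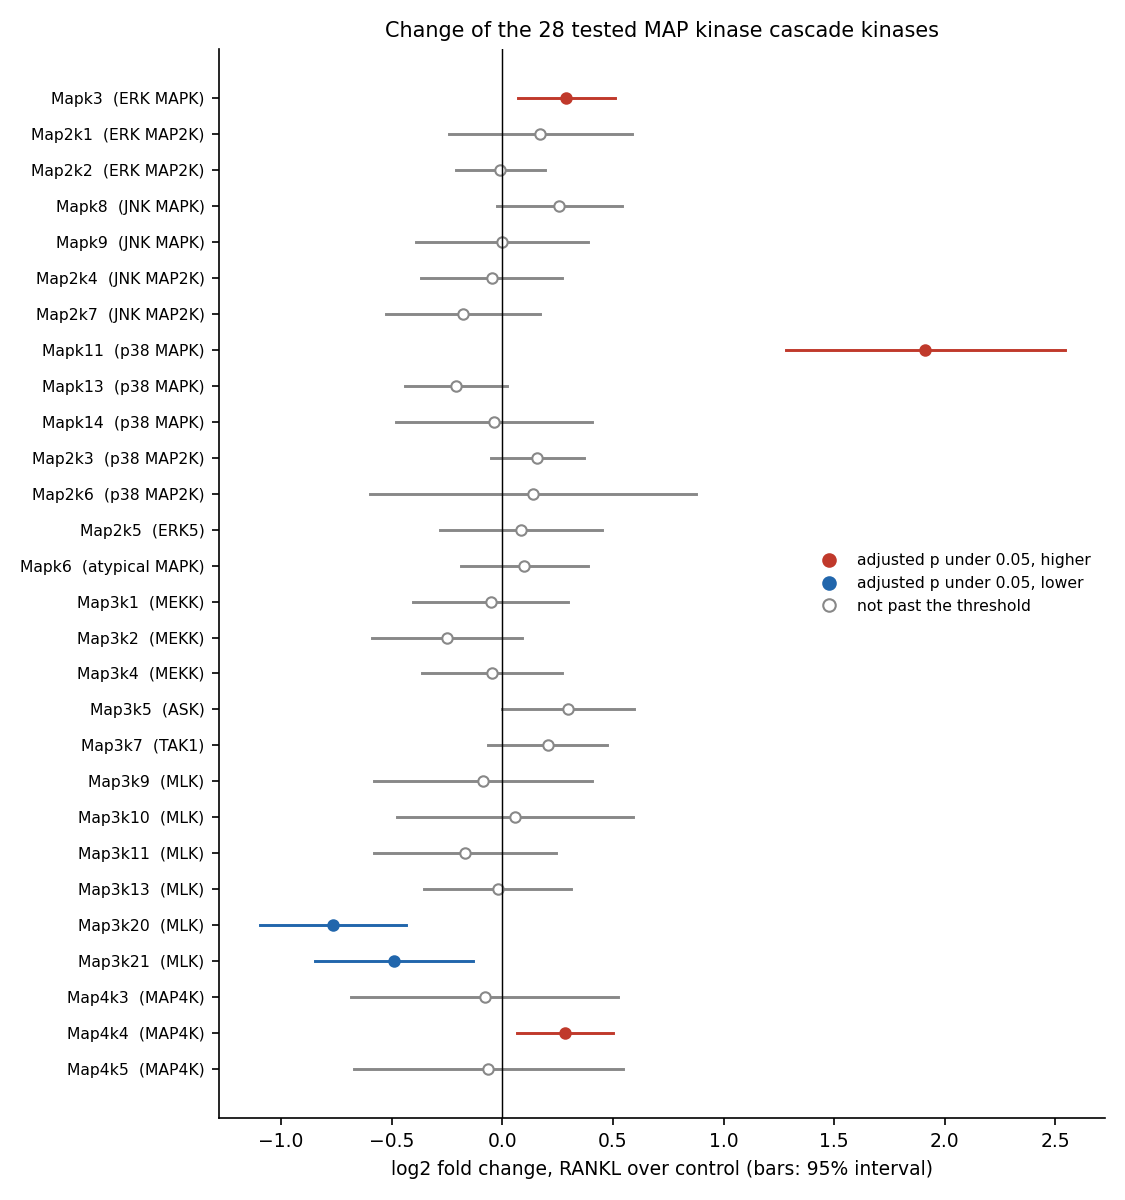
Log2 fold change of RANKL over control (horizontal axis) for the 28 tested kinases, ordered by their place in the cascade, with bars for the 95% interval. Filled points passed an adjusted p of 0.05. Mapk11 at 1.91 stands apart on the right, Map3k20 at -0.77 is the lowest, and 26 of the 28 points lie within 0.5 of zero.

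On the ERK branch Mapk3 passed the threshold narrowly, higher with RANKL, and the MAP2Ks that activate it did not pass. Whether their changes differ from that of Mapk3 was not tested. Mapk3, which encodes ERK1 and lies at chr7:126759601-126765819, had the highest CPM of the 41 kinases. It stood at 507, 682, 591 and 604 CPM in control replicates 1 to 4 and at 806, 821, 692 and 601 CPM in RANKL replicates 1 to 4. RANKL replicates 1, 2 and 3 exceeded all controls, and RANKL replicate 4 lay among the controls (exact two-sided permutation test, p = 0.0857). The rise was from 596 ± 71.8 to 729.9 ± 103 CPM (SD, n = 4 each), 1.22-fold (log2 fold change 0.29, SE 0.11, adjusted p = 0.045, with SE the standard error). Its call was close to the threshold and was lost with DESeq2 (adjusted p = 0.068), with no filter on low counts (0.11), and without any 1 of control replicates 1 and 4 and RANKL replicates 1, 2 and 3 (0.061 to 0.19).

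Map2k2 (MEK2) made up most of the MEK counts. Its level was 231, 269, 278 and 277 CPM in the controls and 268, 246, 273 and 256 CPM with RANKL, with full overlap. That gave a log2 fold change of -0.0087 with a 95% interval of -0.21 to 0.19 (adjusted p = 0.96). Map2k1 (MEK1) was lower in CPM, at 21.1, 16.4, 14.7 and 17.2 in control and 14.5, 19.3, 20.3 and 22.5 in RANKL libraries, and the groups again overlapped. It had a log2 fold change of 0.17 with a 95% interval of -0.24 to 0.58 (adjusted p = 0.58). Summed over both genes, the MEK tier was at 281 ± 19.6 CPM in controls and 280.0 ± 11.8 CPM with RANKL, with overlap.

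**Figure D2:**
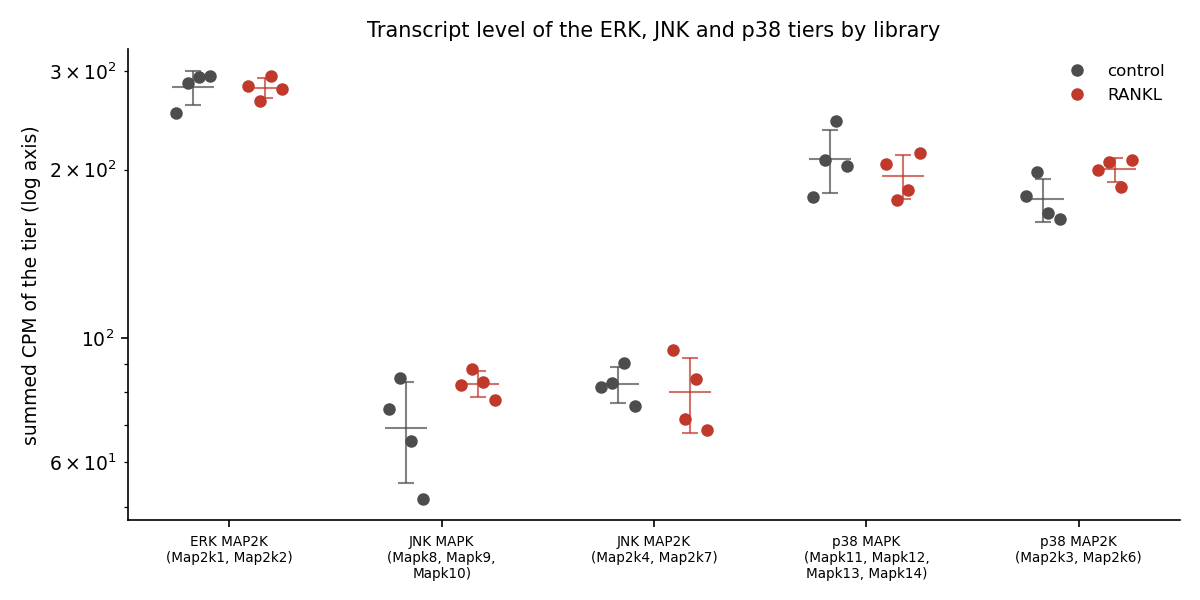
Summed CPM (log axis) of the MAP2K genes of the ERK branch and of the MAPK and MAP2K genes of the JNK and p38 branches in each library, with mean and SD (n = 4). The MAP2K tier of ERK lies highest, at 252 to 294 CPM over all libraries, the JNK tiers lowest, and in every tier the control and RANKL libraries overlap.

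Of the JNK branch, Mapk8, Mapk9, Map2k4 and Map2k7 were tested and none passed the threshold, too few to set apart from the background of 25.9%. Mapk8 (JNK1), the more abundant JNK gene by 3′ count, was at 50.5, 58.8, 47.9 and 36.1 CPM in the controls and 61.3, 66.1, 59.5 and 56.0 CPM with RANKL. Control replicate 2 lay within the RANKL range and the other controls below it. The difference was a log2 fold change of 0.26 with a 95% interval of -0.023 to 0.54 (adjusted p = 0.18). Mapk9 (JNK2) was at 24.2, 26.0, 17.7 and 15.5 CPM in the controls and 19.4, 22.0, 24.0 and 21.4 CPM with RANKL, the RANKL values lying inside the control range. It had a log2 fold change of -0.0033 with a 95% interval of -0.39 to 0.39 (adjusted p = 0.99). Mapk10 (JNK3), known mainly from neurons, had 2 counts in all libraries together.

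Of the MAP2Ks of this branch, Map2k4 (MKK4), which can also act on p38, was at 43.3, 50.2, 49.2 and 39.6 CPM in the controls and 61.3, 33.0, 45.9 and 46.1 CPM with RANKL. The RANKL libraries spread more widely than the controls, on both sides of them. Its difference was a log2 fold change of -0.048 with a 95% interval of -0.37 to 0.27 (adjusted p = 0.85). Map2k7 (MKK7), specific to JNK, was at 38.6, 33.0, 41.3 and 36.1 CPM in the controls and 33.9, 38.5, 38.6 and 22.5 CPM with RANKL, with RANKL replicate 4 lowest. It had a log2 fold change of -0.18 with a 95% interval of -0.53 to 0.17 (adjusted p = 0.48), and its exons overlap those of Gm49320 on the same strand, so reads may be shared. The summed JNK tier was 69.2 ± 14.1 CPM in controls and 82.8 ± 4.38 CPM with RANKL and the tier of its MAP2Ks 82.8 ± 6.08 CPM in controls and 80.0 ± 12.3 CPM with RANKL.

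The p38 branch held the largest fold change of all the kinases tested, in its least abundant tested MAPK gene. Mapk11 (p38β), at chr15:89142486-89149628 on the minus strand, was at 2.80, 3.76, 4.56 and 10.3 CPM in control replicates 1 to 4 and at 22.6, 12.4, 14.6 and 13.7 CPM in RANKL replicates 1 to 4. All RANKL libraries were above all controls (exact two-sided permutation test, p = 0.0286, the smallest that 70 assignments of 4 against 4 libraries can give). The nearest control was replicate 4, the shallowest, where the value rests on 6 counts. The mean rose from 5.36 ± 3.38 to 15.8 ± 4.60 CPM (log2 fold change 1.91, SE 0.31, adjusted p = 1.7e-05), from 60 counts over the controls and 85 with RANKL. The fitted 3.76-fold change gives more weight to the deep controls, and without control replicate 1 it was 1.64 on the log2 scale. Mapk11 passed the threshold in each of the 14 other settings in which it was tested. It was not tested where 10 counts were required in every library. Because Mapk11 entered the test through the group where it was high, these p-values and passes add no support beyond its values by library.

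The more abundant p38 genes did not pass the threshold. Mapk13 (p38δ), the p38 gene with most counts here, was at 155, 187, 217 and 175 CPM in the controls and 153, 149, 154 and 177 CPM with RANKL, with overlap. It had a log2 fold change of -0.21 with a 95% interval of -0.44 to 0.021 (adjusted p = 0.18). Mapk14 (p38α), the p38 kinase best known from inflammation, was at 20.2, 15.8, 22.3 and 12.0 CPM in the controls and 25.8, 14.5, 15.1 and 22.0 CPM with RANKL. The ranges of the groups largely overlapped, with a log2 fold change of -0.038 with a 95% interval of -0.48 to 0.40 (adjusted p = 0.92). Mapk12 (p38γ) had 15 counts in control and 5 in RANKL libraries and was not tested.

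The sum over the p38 genes was 209 ± 27.1 CPM in controls and 195 ± 17.5 CPM with RANKL, with overlap. Of that sum, Mapk11 gave 1.56 to 5.08% of the counts in control and 6.41 to 11.0% in RANKL libraries. Mapk13 gave 86.4 to 90.1% of the counts in control and 74.8 to 84.4% in RANKL libraries. For both genes the ranges of the groups did not overlap. For Mapk14 they did, at 5.93 to 11.3% of the counts in control and 8.17 to 12.6% in RANKL libraries. The shares of a library add up to the whole, so a higher share of Mapk11 lowers the others. The lower share of Mapk13 is therefore not a separate result, and in CPM its groups overlapped. No background was computed for shares. In CPM, 24.6% of all genes tested had no overlap. The 4 genes stand in tandem pairs on the chromosome. Mapk12 follows Mapk11 on chromosome 15 with 1782 bases between them, both on the minus strand, and Mapk13 follows Mapk14 on chromosome 17 after 20890 bases on the plus strand. No exon of the 4 genes overlaps another gene's exon on the same strand.

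**Figure D3:**
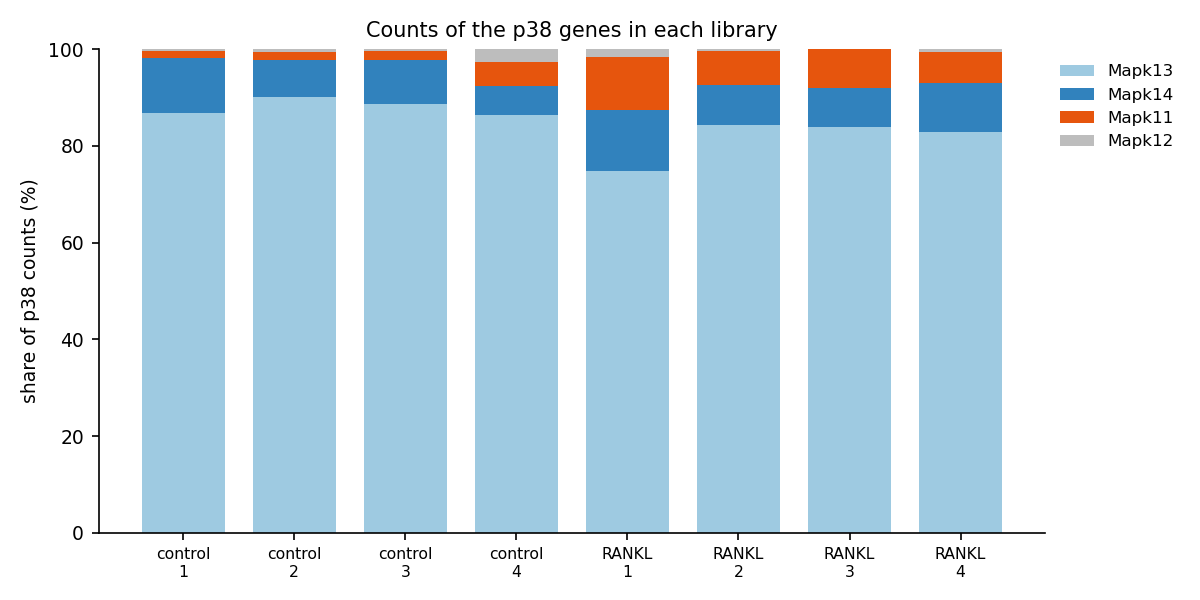
Share (%) of the counts of the 4 p38 genes that fell on each gene, 1 bar per library. Mapk13 fills most of every bar, and the Mapk11 segment takes 1.56 to 5.08% of the counts in control and 6.41 to 11.0% in RANKL libraries.

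Neither MAP2K of p38 passed the threshold. None of the 7 tested MAP2K genes did, too few to set apart from the background of 25.9%. Map2k3 (MKK3) was at 172, 192, 161 and 163 CPM in the controls and 189, 201, 176 and 205 CPM with RANKL, where 1 control reached into the RANKL range from below and the others did not. This was a log2 fold change of 0.16 with a 95% interval of -0.053 to 0.37 (adjusted p = 0.28). Map2k6 (MKK6) was scarce, with 55, 24, 26 and 0 counts in control replicates 1 to 4 and 7, 8, 19 and 6 counts in RANKL replicates 1 to 4. The groups overlapped. Its interval was the widest of the kinases that did not pass, -0.60 to 0.88 around a log2 fold change of 0.14 (adjusted p = 0.82).

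Among the kinases outside these branches, Map2k5 (MEK5), which activates ERK5, was at 22.6 ± 2.24 CPM in controls and 23.8 ± 3.29 CPM in RANKL-treated organoids, with a log2 fold change of 0.084 (95% interval -0.28 to 0.45). Mapk6 (ERK3), an atypical MAPK, ranged over 43.2 to 51.6 CPM in controls and 42.3 to 56.5 CPM with RANKL, with 0.099 (95% interval -0.19 to 0.39). In control organoids the order of these 7 MAPK genes by 3′ CPM was Mapk3, Mapk13, Mapk6 and Mapk8 together, Mapk9 and Mapk14 together, and Mapk11. The control ranges of Mapk6 and Mapk8 overlapped, as did those of Mapk9 and Mapk14, and the other neighbours in that order did not overlap.

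At the MAP3K level 11 of 17 kinases were tested, and 2 passed, Map3k20 and Map3k21, both lower with RANKL. That is 18.2% of those tested against the background of 25.9%. Both belong to the mixed lineage kinases, of which 6 were tested and the other 4 did not pass, too few to set apart from that background. Map3k20 (ZAK), which senses stalled ribosomes and feeds JNK and p38, lies at chr2:72285637-72442610. It was at 50.3, 42.9, 47.6 and 56.8 CPM in the controls and 17.8, 28.2, 32.3 and 29.1 CPM with RANKL. Every RANKL library was below every control (exact permutation test, p = 0.0286), and RANKL replicate 1 was lowest. The mean fell from 49.4 ± 5.77 to 26.9 ± 6.32 CPM (log2 fold change -0.77, SE 0.16, adjusted p = 0.00054). Map3k20 kept its call in each of the 15 other settings, at -0.86 to -0.68 on the log2 scale with a library left out.

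Map3k21 (MLK4), at chr8:125910450-125947440, was at 31.2, 44.8, 47.1 and 37.8 CPM in the controls and 37.1, 29.6, 26.1 and 26.4 CPM with RANKL. Control replicate 1 and RANKL replicate 1 crossed, and the other libraries kept the order of the groups (exact two-sided permutation test, p = 0.0571). The mean fell from 40.2 ± 7.21 to 29.8 ± 5.15 CPM (log2 fold change -0.49, SE 0.18, adjusted p = 0.038). The call was lost with DESeq2 (adjusted p = 0.090) and limma-voom (0.068), and without any 1 of control replicates 2 and 3 and RANKL replicates 2, 3 and 4 (0.072 to 0.13).

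Map3k7 (TAK1), the MAP3K that links TRAF6 to JNK, p38 and NF-κB, did not pass. It was at 77.7, 68.2, 59.3 and 75.7 CPM in the controls and 103, 83.3, 72.0 and 72.5 CPM with RANKL, where RANKL replicates 1 and 2 lay above all controls and the other 2 among them. It had a log2 fold change of 0.20 with a 95% interval of -0.066 to 0.48 (adjusted p = 0.28). Map3k8 (TPL2), which feeds ERK downstream of NF-κB signals, had 21 counts in control and 10 in RANKL libraries and was not tested.

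The other tested MAP3Ks did not pass the threshold. Of the MEKK kinases, which mainly feed JNK, p38 and ERK5, Map3k1 ranged over 26.6 to 46.4 CPM in controls and 25.8 to 36.5 CPM with RANKL, with a log2 fold change of -0.053 (95% interval -0.40 to 0.30). Map3k4 ranged over 32.7 to 40.5 CPM in controls and 27.4 to 37.5 CPM with RANKL, with -0.047 (95% interval -0.36 to 0.27). Map3k2 was at 50.8 ± 5.90 CPM in controls and 39.7 ± 13.4 CPM in RANKL-treated organoids and had the lowest log2 fold change of the kinases that did not pass, -0.25 (95% interval -0.59 to 0.089). The highest of them, 0.30 (95% interval -0.00060 to 0.60), was that of Map3k5 (ASK1), which answers to oxidative stress and ranged over 38.9 to 43.0 CPM in controls and 35.5 to 59.3 CPM with RANKL. The other mixed lineage kinases, known mainly as activators of JNK, had log2 fold changes between -0.17 for Map3k11 and 0.059 for Map3k10, with Map3k9 and Map3k13 between them. Map3k10 was the scarcest, at 6.88 to 11.3 CPM in controls and 4.84 to 13.0 CPM with RANKL, and Map3k13 the most abundant by 3′ count, at 27.4 to 32.7 CPM in controls and 25.8 to 31.3 CPM with RANKL. Exons of Map3k13 overlap those of 1300002E11Rik on the same strand.

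Of the MAP4K genes, 3 of 5 were tested and Map4k4 was higher with RANKL, 33.3% against the background of 25.9% and too few to set apart from it. Map4k4 (HGK), a kinase upstream of JNK that also acts on the cytoskeleton, lies at chr1:39900913-40026310. It was at 175, 221, 192 and 225 CPM in the controls and 247, 273, 234 and 224 CPM with RANKL. RANKL replicate 4 fell just below the highest control, and the other RANKL libraries lay above all controls (exact two-sided permutation test, p = 0.0571). The mean rose from 203 ± 24.0 to 244 ± 21.3 CPM (log2 fold change 0.28, SE 0.11, adjusted p = 0.049). This call was lost with DESeq2 (adjusted p = 0.077), with DESeq2 size factors (0.052) and with no filter on low counts (0.17), and without any 1 of control replicates 1 and 3 and RANKL replicates 1, 2 and 3 (0.064 to 0.20). Map4k3 was scarce, at 6.34 to 9.12 CPM in controls and 5.74 to 12.9 CPM with RANKL, with a log2 fold change of -0.080 (95% interval -0.68 to 0.52). The same held for Map4k5, at 6.24 to 8.59 CPM in controls and 4.82 to 9.69 CPM with RANKL, with -0.063 (95% interval -0.67 to 0.54).

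**Figure D4:**
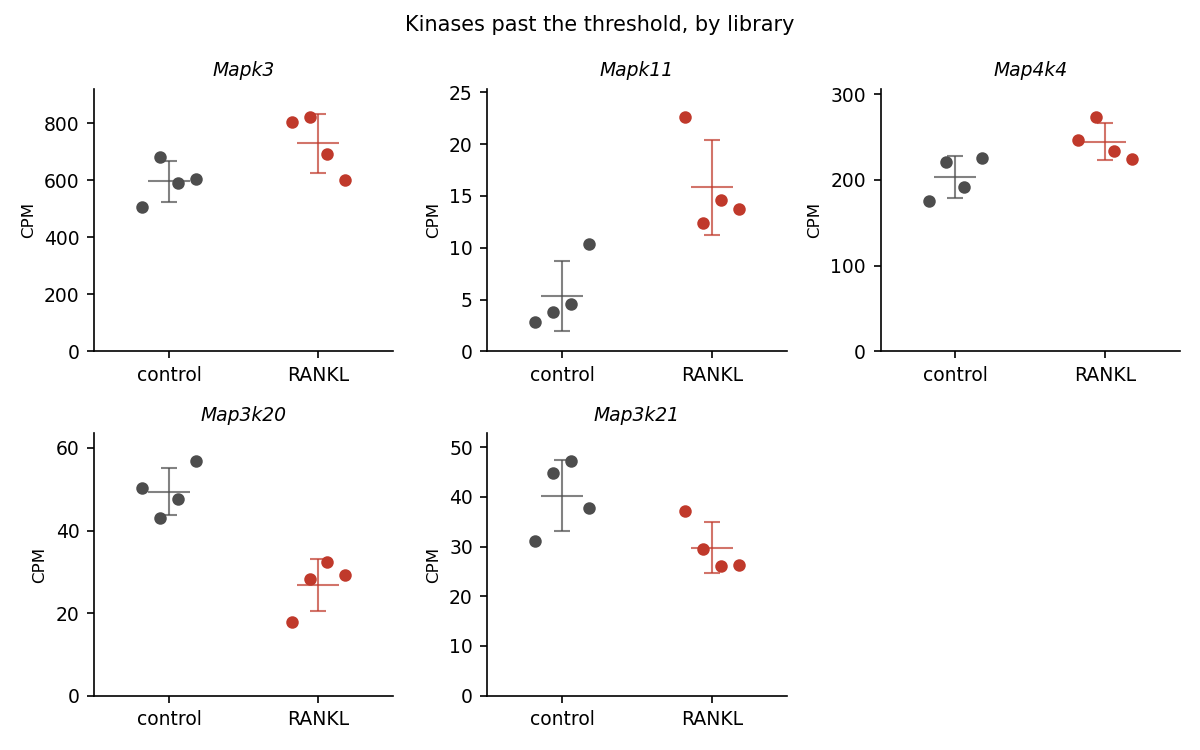
CPM of the 5 kinases past the threshold in each library, with mean and SD (n = 4), vertical axes from 0. The control and RANKL points are separate for Mapk11 and Map3k20 and overlap for Mapk3, Map4k4 and Map3k21.

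The other 13 kinases had too few counts for the test. Beside Mapk10, Mapk12 and Map3k8, these were the ERK5 gene Mapk7 (63 counts in control, 22 in RANKL libraries), the atypical Mapk4 (2 and 3) and Mapk15 (1 and 1), the MEKK gene Map3k3 (71 and 18), the ASK genes Map3k6 (38 and 13) and Map3k15 (53 and 29), the mixed lineage kinase gene Map3k12 (19 and 6), Map3k19 (0 and 0), and Map4k1 (20 and 2) and Map4k2 (74 and 31). The control libraries held more reads in all, so these pairs are not to be read as falls. As CPM pooled over a group, Map3k15 was at 3.27 in control and 5.03 in RANKL libraries and Map4k1, a kinase known from blood cells, at 1.23 and 0.347. Map3k19 with 0 counts allows up to 0.137 CPM over all libraries pooled.

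**Figure D5:**
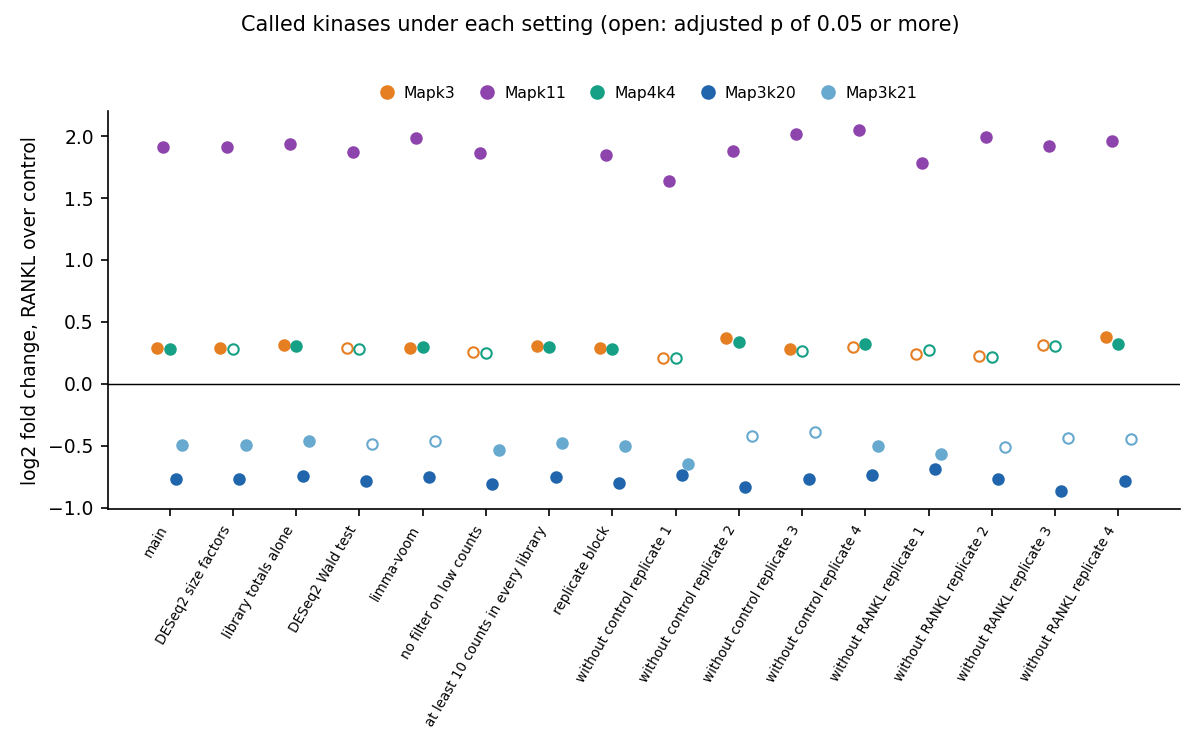
Log2 fold change of RANKL over control for the 5 kinases past the threshold, in the main fit and under each other setting. Filled points have an adjusted p under 0.05. Mapk11 and Map3k20 are filled wherever they were tested, and Mapk3, Map4k4 and Map3k21 are open under 7 or 8 of 15 other settings.

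Around the kinases, 77 genes of the same pathways were listed by role, and 62 were tested. Of these, 12 were higher and 7 lower with RANKL, 30.6% against the background of 25.9%, with a median log2 fold change of 0.077 against 0.00017 over all genes tested. In 6 of the 62 the minimum level of the filter, about 5.39 CPM, was reached in all RANKL libraries but not in all controls, and in 4 the reverse held, so these genes entered the test through 1 group and the counts and the median support nothing about the lists. The lists were written with earlier results of these data known. Among 19 genes of the Ras and Raf level, 17 were tested, and Rasal1, Rras2, Rasal2, Rras and Nras were higher, 29.4% against 25.9%. Rasal1, which encodes a Ras GTPase-activating protein, had 5 counts in control and 74 in RANKL libraries (adjusted p = 7.1e-11). It reached the minimum level in 4 RANKL and 0 control libraries and so was tested through the group where it was high. The Ras-related GTPase gene Rras2 rose from 37.1 ± 5.53 to 74.3 ± 5.62 CPM (log2 fold change 0.94, adjusted p = 2.4e-06). Rras, another of that family, rose from 34.2 ± 0.855 to 50.9 ± 7.47 CPM (log2 fold change 0.61, adjusted p = 0.0017). Rasal2, also a Ras GTPase-activating protein, rose from 18.5 ± 7.97 to 34.2 ± 10.5 CPM (log2 fold change 0.63, adjusted p = 0.027), with overlap between the groups. The genes higher with RANKL thus include both Ras-related GTPases and Ras GTPase-activating proteins.

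Among 27 scaffolds, adaptors and binding proteins, 24 were tested, 4 were higher and 4 lower, 33.3% against 25.9%. The arrestin genes, whose products dock ERK and JNK modules, were among those higher. Arrb2 rose from 27.1 ± 4.60 to 55.0 ± 7.99 CPM (log2 fold change 1.11, adjusted p = 2.7e-06) and Arrb1 from 97.5 ± 20.5 to 186 ± 28.2 CPM (log2 fold change 0.89, adjusted p = 1.9e-06). Traf2, an adaptor between TNF family receptors and MAP3Ks, rose from 29.6 ± 6.35 to 54.1 ± 7.25 CPM (log2 fold change 0.87, adjusted p = 0.00011). Pea15a, whose product holds ERK in the cytoplasm, rose from 6.15 ± 2.12 to 9.27 ± 1.03 CPM (log2 fold change 0.81, adjusted p = 0.043), with overlap, and reached the minimum level in only 2 controls. Lower were Lamtor2, which anchors the MEK1 scaffold to endosomes, Sh3rf1, a JNK scaffold, Tab2, the TAK1-binding adaptor, and Pebp1, a Raf inhibitor.

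Of 11 kinases that ERK or p38 activate, 9 were tested and 2 passed, both lower, which is 22.2% against the background of 25.9%. Rps6ka5 (MSK1), a nuclear kinase downstream of ERK and p38, fell from 12.9 ± 1.30 to 6.88 ± 1.78 CPM (log2 fold change -0.93, adjusted p = 0.012), and Rps6ka1 (RSK1), activated by ERK, fell from 242 ± 16.3 to 193 ± 22.6 CPM (log2 fold change -0.35, adjusted p = 0.013). Neither overlapped between the groups. Rps6ka5 reached the minimum level in 4 control but only 3 RANKL libraries, so it counts among the genes that entered through 1 group. Of 20 phosphatases that can act on MAP kinases, 12 were tested, 3 were higher and 1 lower, 33.3% against 25.9%. Dusp14 (MKP6) rose from 4.25 ± 1.89 to 13.8 ± 3.13 CPM (log2 fold change 1.96, adjusted p = 7.7e-06) and, with 4 RANKL libraries and 1 control at the minimum level, likewise entered the test through the group where it was high. Dusp8, a phosphatase for JNK and p38, rose from 8.64 ± 3.64 to 17.6 ± 3.18 CPM (log2 fold change 0.85, adjusted p = 0.0084). With 4 RANKL libraries and 3 controls at the minimum level, Dusp8 also counts among the genes that entered through 1 group. Dusp3 (VHR), which acts on ERK and JNK, rose from 15.7 ± 2.01 to 23.1 ± 6.86 CPM (log2 fold change 0.57, adjusted p = 0.049), with overlap. Dusp5, a nuclear phosphatase for ERK that ERK itself induces, fell from 83.5 ± 11.6 to 54.7 ± 10.4 CPM (log2 fold change -0.61, adjusted p = 0.0019), with no overlap between the groups.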

How the data were processed

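RNA was measured in 4 control and 4 RANKL-treated libraries of mouse small intestinal organoids, made with the QuantSeq 3′ forward kit and sequenced as single reads of 50 bases. The authors trimmed reads with BBDuk, removed ribosomal, mitochondrial, phiX and adapter sequences with bowtie2, aligned to GRCm38 (mm10) with STAR and used featureCounts with the strand to count reads on the Ensembl release 94 genes. The deposited values are these raw counts, whole numbers without normalization. Gene names, positions and coding sequences came from GENCODE release M21 on the same build, which matched 54495 of 54532 identifiers. The other 37 held 0.0067% of the counts.

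Groups and replicate numbers came from the sample titles. Counts were tested with edgeR 4.0.16 (R 4.3.3): TMM scaling, the filterByExpr filter, a quasi-likelihood test without covariates, Benjamini-Hochberg adjustment over 9971 genes and a threshold of 0.05. The filter asked for about 5.39 CPM in at least 4 libraries. A standard error is the log2 fold change divided by the square root of F. Exact two-sided permutation tests used CPM over 70 assignments. Sums over a tier and shares within it got no test. Alternatives were DESeq2 size factors, library totals alone, the DESeq2 1.42.0 Wald test, limma-voom (limma 3.58.1), no filter, a minimum of 10 counts in each library, a block for the replicate number, leaving out 1 library at a time, and an adjusted p of 0.01. On simulated counts with 100 genes changed 2-fold and 100 changed 4-fold, edgeR recovered 93 and 100 of them with 9 false calls among 10006 genes. Changed genes were drawn only from those above 10 CPM on average, so the recovery does not describe scarcer kinases or changes under 2-fold. Pairs of libraries within a group differed by more than counting noise (chi-square per degree of freedom 1.25 to 11.9), so none were merged. Tables were read with Python 3.11.15.

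The members, the lists of other pathway genes and the marker lists were chosen with earlier results of these data known. The rule takes in 42 kinases. Of these 1, and 1 gene of the Ras list, is not reported here or counted among the members, and each of the other 41 kinases is named. Members past the threshold, and the main kinases of the ERK, JNK and p38 branches with TAK1, are given by library where tested, other tested members by range or fold change, and untested ones by counts. Of each pathway list, up to 4 genes past the threshold with the largest absolute log2 fold change at a mean of at least 5 CPM are given with values, and Nras, Lamtor2, Sh3rf1, Tab2 and Pebp1, outside this rule, were named after their values were seen. Pdgfrb was singled out in the same way.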

Additional observations from a re-analysis of the deposited data

Results flagged for a closer look

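For each of the 28 tested kinases and the 5 tier sums, the highest and the lowest of the 4 libraries of a group were set against Dixon's 95% critical value for 4 samples. This made 66 groups of values, of which about 1 in 20, or 3.3, would be past it by chance. The only value past it was Map2k6 in control replicate 4, which had 0 counts where the next control had 6.44 CPM. That library is the shallowest, and 3 counts in it come to 5.16 CPM.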

How the results depend on the processing

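The main fit called 3 kinases higher and 2 lower. Mapk11 and Map3k20 were past the threshold in every alternative in which they were tested, and the calls of Mapk3, Map4k4 and Map3k21 were lost in several. Mapk11 entered the main test through the group where it was high, so its passes add no support. The DESeq2 Wald test left 1 higher and 1 lower, limma-voom 3 higher and 1 lower, no filter 1 higher and 2 lower, and an adjusted p of 0.01 left 1 higher and 1 lower. With 1 library left out, 1 to 3 were higher and 1 to 2 lower. Of the other pathway genes (12 higher and 7 lower), 6 were higher where 10 counts were required in every library, 2 were lower at an adjusted p of 0.01, and 3 to 9 were lower with 1 library left out, the fewest without RANKL replicate 4. Over all genes, 1636 of 2587 passed an adjusted p of 0.01. The other alternatives left these counts within 1.5 times. An adjusted p of 0.01 can only keep or lose calls of the main fit, and a gene left out by a filter cannot be called. Otherwise the cause of the changed counts was not tested.

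Log2 fold changes near zero changed sign, none of them past the threshold on either side. With library totals alone Map2k2 was at 0.018, Map3k13 at 0.0041 and Mapk9 at 0.019. Map2k2 was at 0.0037 with limma-voom and 0.0079 where 10 counts were required, and Mapk9 at 0.0069 with DESeq2 and 0.0098 with limma-voom. With 1 library left out, the ranges that crossed zero were -0.076 to 0.027 for Map2k2, -0.14 to 0.084 for Map2k4, -0.016 to 0.15 for Map2k5, -0.18 to 0.44 for Map2k6, -0.28 to 0.0016 for Map2k7, -0.17 to 0.0086 for Map3k1, -0.099 to 0.029 for Map3k4, -0.21 to 0.053 for Map3k9, -0.079 to 0.17 for Map3k10, -0.071 to 0.032 for Map3k13, -0.24 to 0.064 for Map4k3, -0.18 to 0.081 for Map4k5, -0.12 to 0.10 for Mapk9 and -0.16 to 0.077 for Mapk14. The tier sums stayed within 1 SD under both other scalings.

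Same-numbered libraries showed little common deviation (correlations of their deviations from the group means -0.034 to 0.10, the highest for replicate 3). Such low correlations cannot exclude that the numbers pair the libraries, and the labels do not say. With the replicate number as a block, 2610 genes passed, 3 kinases were higher and 2 lower, Mapk9 was at 0.072 and Map4k3 at 0.0085.

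Depth limits what was measured for scarce kinases: 13 of 41 could not be tested, and control replicate 4 and RANKL replicate 1 held only 583663 and 613135 counts.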
